A study of Mus musculus with 6 samples.

Results

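The genes described here are 37 mouse genes of the endoplasmic reticulum (ER): its chaperones, the folding enzymes, the sensors of the unfolded protein response, the machinery of ER-associated degradation (ERAD) and the protein entry channel. They were taken by symbol from count tables of 23282 entries, and each of the 37 symbols stood on exactly 1 entry. RNA was counted at the 3′ end of messages in 6 libraries labelled as BMOL, a liver progenitor cell line of the mouse. Of these, 3 were labelled control and carried a vector control, and 3 were labelled TXNIP overexpressed and carried TXNIP-expressing constructs (called the TXNIP libraries below). TXNIP, thioredoxin-interacting protein, is an alpha-arrestin that binds thioredoxin. The promoter and sequence of the construct and the number of clones are not stated in the labels. Nor do the labels tell whether replicates are separate cultures, so p-values measure only the spread between these libraries.

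Secreted and membrane proteins enter the ER through the SEC61 channel and fold there with the help of chaperones and of enzymes that form disulfide bonds. When unfolded protein builds up, the sensors IRE1, PERK and ATF6 start the unfolded protein response, which raises transcription of chaperone genes and slows translation. Proteins that fail to fold are recognised, moved back to the cytosol and broken down by the proteasome, which is ERAD. Cells that secrete much protein, such as hepatocytes, plasma cells and activated macrophages, depend on this machinery.

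Library totals ran from 8725624 to 15119775 counts, which sets the counting precision. Levels are CPM (the count divided by the library total and multiplied by 1000000), not divided by gene length, since each message is read at its 3′ end. Fold changes are log2 values of TXNIP libraries minus controls from edgeR's quasi-likelihood test, with standard errors (SE) and Benjamini-Hochberg adjusted p over 12088 genes, called at 0.05. Txnip had 39.7, 9.84 and 10.9 CPM in controls 1 to 3 and 209, 291 and 286 CPM in the TXNIP libraries, a log2 fold change of 3.82 ± 0.46 (SE). Control replicate 1 stood above the other controls: the ratio of mean CPM was 13.0 with it and 25.2 without it (log2 fold change 4.71). Since the sequence of the construct is not stated, whether its 3′ ends were counted as Txnip is not known. Markers of the labelled cell type were not found alike in both groups. Of the 15 leukocyte and macrophage markers with an entry, all 15 were higher in the TXNIP libraries, and their summed level was 74.3 to 96.5 CPM in the controls against 6776 to 7717 CPM. Of 10 tested ductular and progenitor markers, 9 fell and Spp1, which macrophages also express, rose. Without Spp1 their sum was 2596 to 3824 CPM among controls against 1.15 to 1.97 CPM in the TXNIP libraries, where Krt7 and Sox9 had no read. Krt18 had 19564 reads over the controls and 1 over the TXNIP libraries, and Cdh1 had 41374 and 3. Of 6 tested hepatocyte markers, 5 fell, with sums of 349 to 490 CPM and then 0.573 to 7.07 CPM. Of 9 listed markers of plasma cells, 8 had an entry and only Sdc1 was tested; it fell, and Jchain, Tnfrsf17 and Cd79a had no read in any library. By these markers the TXNIP libraries do not match the labelled cell type, and the 2 groups may hold different kinds of cells. A difference between kinds of cells and a response to TXNIP cannot be told apart in any fold change given here, and the part of the marker differences in the results was not tested. In such bulk samples, fewer cells of a type and less RNA per cell cannot be told apart.

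The ER genes were for the most part more abundant in the TXNIP libraries. Together the 37 genes took 0.649%, 0.734% and 0.733% of all counts in the controls and 1.21%, 1.16% and 1.15% in the TXNIP libraries, without overlap. Of the 37 genes, 36 passed the filter on low counts and were tested. Of these 36, 25 rose, 2 fell and 9 did not pass the threshold, so 75% were called, against 64.5% of all tested genes. The share that rose was 69.4%, against 30.6% of all tested genes, while 33.9% of all tested genes fell. The groups did not overlap for 24 of the 36 with the TXNIP libraries higher (31.3% of all tested genes) and for 4 with them lower (39.2% of all tested genes). The median log2 fold change of the 36 genes was 0.87, beside -0.04 over all tested genes.

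**Figure D1:**
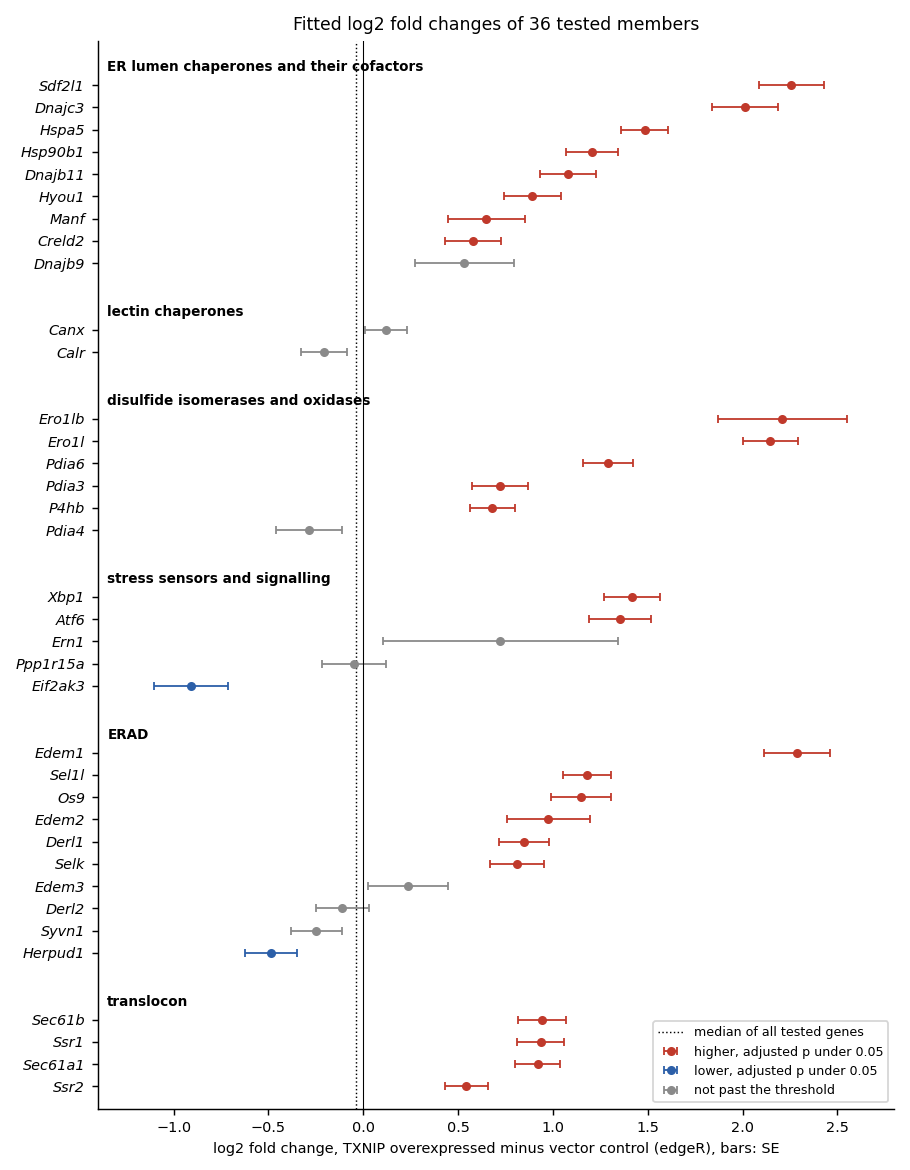
Fitted log2 fold changes (x axis, TXNIP libraries minus controls, bars are SE) of the 36 tested genes, ordered by role, coloured by call; the dotted line is the median of all tested genes. The values run from -0.91 for Eif2ak3 to 2.29 for Edem1, and 25 genes are called higher and 2 lower.

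A background restricted to genes expressed in both groups was counted as well. Of the 37, 34 had a mean of at least 5 CPM in each group, and of these 24 rose and 2 fell. Among all 8423 tested genes at that level, 59.1% were called and 30.6% rose, with a median log2 fold change of 0.04.

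The lumenal chaperones and their cofactors rose in 8 of 9 cases (88.9%, beside 30.6% of all tested genes). Their summed level went from 2052 ± 207 to 4922 ± 317 CPM (SD, n = 3). Hspa5 encodes BiP, the ER member of the HSP70 family that binds nascent chains and holds the sensors inactive; it lies on chromosome 2 from 34772090 to 34776529 (GRCm38.p6, protein-coding). It had 883, 980.5 and 1000.2 CPM among controls against 2723, 2563 and 2340 CPM in the TXNIP libraries. The 2 ranges were far apart, with a log2 fold change of 1.48 ± 0.12 (SE) and an edgeR adjusted p of 5.03e-07. Hsp90b1 encodes GRP94, the HSP90 of the ER. It stood at 533, 654 and 629 CPM in the controls and at 1498, 1270 and 1220 CPM in the TXNIP libraries (log2 fold change 1.20 ± 0.14 SE). Control replicate 1 was the lowest control for both genes, and TXNIP replicate 1 was the highest library for both.

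The largest rises among the chaperone genes were those of Sdf2l1 and Dnajc3, while Dnajb11 and Hyou1 rose less than Hspa5 and Hsp90b1. Sdf2l1, a partner of BiP and the ER J proteins, lies on chromosome 16 from 17130138 to 17132383. It had 36.8, 51.7 and 58.8 CPM among controls against 228, 210 and 237 CPM in the TXNIP libraries, a log2 fold change of 2.26 ± 0.17 (SE; edgeR adjusted p = 2.12e-07). Every TXNIP library lay far above the highest control. Dnajc3 encodes p58IPK, a J protein that works with BiP. It had 47.3, 54.8 and 56.7 CPM among controls against 258, 176 and 179 CPM in the TXNIP libraries, of which replicate 1 stood above the others (log2 fold change 2.01 ± 0.17 SE). Dnajb11, the J protein ERdj3, rose from 43.9, 37.5 and 37.8 CPM to 77.6, 90.6 and 70.9 CPM (log2 fold change 1.08 ± 0.15 SE). Hyou1, the nucleotide exchange factor GRP170, had 62.3, 81.8 and 82.1 CPM and then 138, 141 and 122 CPM (log2 fold change 0.89 ± 0.15 SE), again without overlap.

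The other chaperone genes differed less. Creld2, an ER stress-inducible gene with EGF-like repeats, had 32.4, 31.1 and 32.2 CPM among controls against 45.4, 47.7 and 43.0 CPM in the TXNIP libraries. The difference was small (log2 fold change 0.58 ± 0.15 SE), but both groups were tight and did not overlap (edgeR adjusted p = 0.00417). Manf encodes a small secreted survival factor that is held in the ER. It had 165, 268 and 263 CPM among controls against 264, 398 and 382 CPM in the TXNIP libraries, so the groups overlapped. Replicate 1 was the low library in each group, and the call (edgeR adjusted p = 0.0161) was lost without TXNIP replicate 2 (0.0583) or TXNIP replicate 3 (0.0524). Dnajb9, the J protein ERdj4 that favours degradation and restrains IRE1, had 8.10, 13.9 and 10.3 CPM and then 12.5, 14.4 and 17.8 CPM. It did not pass (edgeR adjusted p = 0.0922), although it did without control replicate 2 (0.0405).

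**Figure D2:**
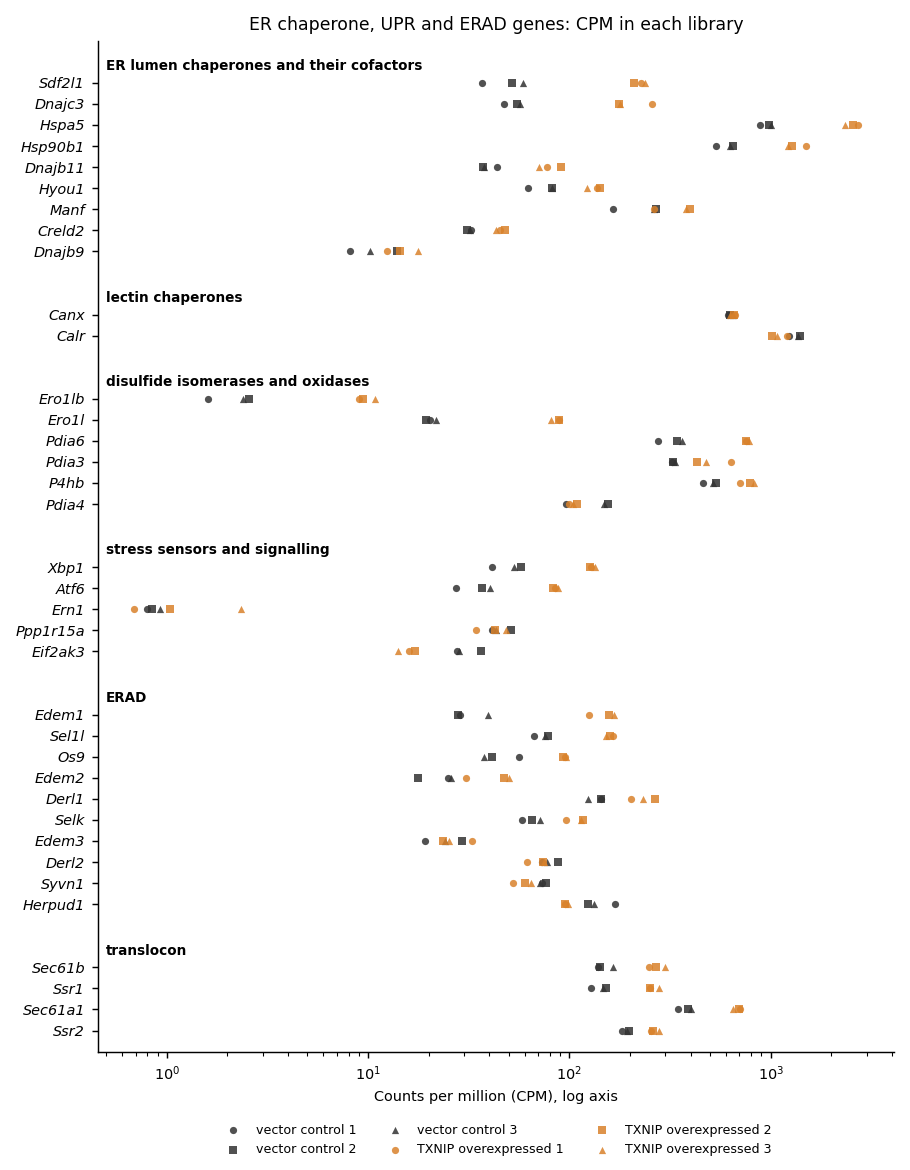
CPM (x axis, log scale) of each of the 36 tested genes in every library; black symbols are the controls and orange symbols the TXNIP libraries, with 1 shape per replicate number. The groups are separate for most chaperones and for all 4 translocon genes, and lie on top of each other for Canx, Ppp1r15a, Derl2 and Edem3.

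The 2 lectin chaperones, which hold newly glycosylated proteins in the folding cycle, did not pass the threshold. Calr, the soluble calreticulin, had 1234, 1406 and 1370 CPM among controls against 1209, 1020 and 1078 CPM in the TXNIP libraries. The TXNIP libraries were all below the controls, by a narrow margin at replicate 1, and the log2 fold change of -0.21 ± 0.12 (SE) did not pass (edgeR adjusted p = 0.156). It passed without TXNIP replicate 1 (0.0401) and without replicate 1 of both groups (2.3e-05). Canx, the membrane-bound calnexin, had 618, 630 and 648 CPM and then 669, 661 and 630 CPM. Its groups overlapped although both were tight, with coefficients of variation of 2.41% in the controls and 3.14% in the TXNIP libraries (edgeR adjusted p = 0.365).

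The disulfide isomerases and oxidases rose in 5 of 6 cases (83.3%, beside 30.6% of all tested genes). Ero1l (now Ero1a) encodes the oxidase that passes electrons from disulfide isomerases to oxygen, and lies on chromosome 14 from 45283087 to 45318572. It had 20.4, 19.3 and 21.7 CPM among controls against 89.3, 89.1 and 81.0 CPM in the TXNIP libraries, a log2 fold change of 2.15 ± 0.14 (SE; edgeR adjusted p = 6.54e-08), the smallest adjusted p of the 36 genes. Its paralog Ero1lb (now Ero1b) was counted far less, with 86 reads over the controls and 300 over the TXNIP libraries. It went from 1.60, 2.55 and 2.38 CPM to 9.05, 9.43 and 10.8 CPM, a log2 fold change of 2.21 ± 0.34 (SE), so the mean CPM of Ero1l was 4.22 times and that of Ero1lb 4.49 times the control mean.

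Among the isomerases the differences were unequal. Pdia6, which also binds IRE1 and PERK, had 275, 343 and 362 CPM among controls against 756, 752 and 779 CPM in the TXNIP libraries (log2 fold change 1.29 ± 0.13 SE; edgeR adjusted p = 3.14e-06). P4hb, the classical protein disulfide isomerase, went from 463, 535 and 516 CPM to 705, 787 and 825 CPM (log2 fold change 0.68 ± 0.12 SE). Pdia3, the isomerase that works with calreticulin and calnexin, had 322, 327 and 335 CPM and then 635, 431 and 477 CPM (log2 fold change 0.72 ± 0.15 SE). TXNIP replicate 1 stood above the others, as it did for Dnajc3. Pdia4 (ERp72) was the gene of this group that did not rise, with 96.3, 156 and 149 CPM among controls against 100.1, 109 and 104 CPM in the TXNIP libraries. It overlapped through control replicate 1, and without that library the log2 fold change of -0.29 became -0.49 and passed (edgeR adjusted p = 0.00384). Without control replicate 2 it was -0.17 (adjusted p = 0.478) and without control replicate 3 it was -0.20, so the size of the difference rests on single controls.

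The genes of the sensors and of their signalling went in different directions. Xbp1, the transcription factor whose message IRE1 splices, had 41.3, 57.6 and 53.2 CPM among controls against 128, 126 and 135 CPM in the TXNIP libraries (log2 fold change 1.42 ± 0.15 SE; edgeR adjusted p = 4.16e-06). Counts at the 3′ end do not tell its spliced from its unspliced form. Atf6, the sensor that is cut in the Golgi and then acts as a transcription factor, went from 27.4, 36.8 and 40.3 CPM to 84.5, 82.9 and 88.1 CPM (log2 fold change 1.35 ± 0.16 SE). Eif2ak3 encodes PERK, the kinase that slows translation, and lies on chromosome 6 from 70844484 to 70905241. It fell from 27.6, 36.5 and 28.4 CPM to 15.9, 17.1 and 14.05 CPM, with separate groups (log2 fold change -0.91 ± 0.19 SE; edgeR adjusted p = 0.00133). Thus of the sensor genes Atf6 was higher and Eif2ak3 lower in every TXNIP library. Ern1, which encodes IRE1 alpha, had only 33 reads over the controls and 43 over the TXNIP libraries, or 0.858 ± 0.0642 and 1.35 ± 0.863 CPM (SD, n = 3), and did not pass (edgeR adjusted p = 0.323). Its reads were few, and the TXNIP libraries spread from 0.688 to 2.33 CPM. Ppp1r15a encodes GADD34, which reverses the block of translation. It had 45.4 ± 5.21 and 41.9 ± 7.10 CPM, with overlapping groups (edgeR adjusted p = 0.816).

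ERAD genes rose in 6 of 10 tested cases, fell in 1 and did not pass in 3. Thus 60% rose and 70% were called, beside 30.6% and 64.5% of all tested genes. Edem1, a mannosidase-like protein that hands glycoproteins over to degradation, lies on chromosome 6 from 108824045 to 108859356. It had 28.7, 28.03 and 39.4 CPM among controls against 125, 158 and 166 CPM in the TXNIP libraries. This was the largest log2 fold change of the 36 genes, 2.29 ± 0.17 (SE; edgeR adjusted p = 2.05e-07). Its relative Edem2, which starts the mannose trimming, went from 25.1, 17.7 and 25.8 CPM to 30.8, 47.2 and 50.3 CPM (log2 fold change 0.98 ± 0.22 SE). Edem3 had 24.2 ± 5.02 and 27.3 ± 5.02 CPM (SD, n = 3) and did not pass (edgeR adjusted p = 0.35).

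Within the membrane complex that moves proteins out, the adaptor rose and the ligase did not pass. Sel1l, the adaptor that holds the ubiquitin ligase, had 66.5, 78.0 and 76.0 CPM among controls against 165, 159 and 153 CPM in the TXNIP libraries (log2 fold change 1.18 ± 0.13 SE; edgeR adjusted p = 5.34e-06). Syvn1, the ligase HRD1 itself, had 73.1, 76.3 and 71.4 CPM and then 52.3, 60.2 and 64.6 CPM. The TXNIP libraries were all lower, yet the log2 fold change of -0.25 ± 0.13 (SE) did not pass (edgeR adjusted p = 0.123). Os9, the lectin that delivers trimmed glycoproteins to SEL1L, rose from 56.5, 41.5 and 37.8 CPM to 95.4, 93.4 and 96.4 CPM (log2 fold change 1.15 ± 0.16 SE). Derl1, a channel-like partner, went from 143, 143 and 123 CPM to 203, 266 and 233 CPM (log2 fold change 0.85 ± 0.13 SE). Selk (now Selenok), a selenoprotein bound to the derlins, went from 57.9, 65.3 and 71.6 CPM to 95.8, 117 and 114 CPM (log2 fold change 0.81 ± 0.14 SE). For Os9, Derl1 and Selk alike every TXNIP library lay above every control. Derl2 had 79.4 ± 7.56 and 70.2 ± 7.51 CPM (SD, n = 3) and did not pass (edgeR adjusted p = 0.504). Derl3 had no read in any library, which allows at most 0.198 to 0.344 CPM per library at 3 counts. Herpud1 encodes HERP, an ER stress-induced protein that organises the complex, and lies on chromosome 8 from 94386429 to 94395371. It fell from 169, 124 and 132 CPM to 94.8, 94.7 and 98.9 CPM (log2 fold change -0.49 ± 0.14 SE; edgeR adjusted p = 0.00795), with control replicate 1 the highest library.

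All 4 genes of the translocon rose, with separate groups, Ssr2 by less than the others. Among all tested genes 30.6% rose, and 31.3% had separate groups with the TXNIP libraries higher. Sec61a1 forms the channel; it had 345, 387 and 403 CPM among controls against 703, 693 and 651 CPM in the TXNIP libraries (log2 fold change 0.92 ± 0.12 SE; edgeR adjusted p = 2.53e-05). Sec61b, a small subunit of the channel, went from 140, 142 and 166 CPM to 250, 270 and 299 CPM (log2 fold change 0.94 ± 0.13 SE). The translocon-associated genes Ssr1 and Ssr2 help substrates to enter. Ssr1 had 128, 152 and 147 CPM and then 251, 250 and 279 CPM (log2 fold change 0.94 ± 0.12 SE). Ssr2 had 183, 197 and 192 CPM and then 256, 260 and 279 CPM (log2 fold change 0.54 ± 0.11 SE).

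Promoter sequences were examined because many of these genes are known targets of ATF6 and XBP1, which bind the ER stress element (ERSE). It consists of CCAAT, a spacer of 9 bases and CCACG. Since the list holds known targets, a high share with the element describes the list and is no test. RefSeq promoters of GRCm38.p6, from 250 bases before to 50 after each start, were found for 31 of the 37 genes; Hyou1, Manf, Atf6, Derl1, Sec61a1 and Ssr2 had no entry. The motif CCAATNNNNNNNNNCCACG, on either strand, was present in 10 of the 31 (32.3%), against 39 of 32851 promoters of all genes (0.119%). The 11 sites of these 10 genes are shown in gene orientation, with the conserved ends in capitals; Hsp90b1 has a pair of them, and a site on the opposite strand begins with CGTGG and ends with ATTGG.
Hspa5, chr2:34772025-34772043, plus strand: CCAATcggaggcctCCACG
Hsp90b1, chr10:86705638-86705656, minus strand: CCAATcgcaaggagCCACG
Hsp90b1, chr10:86705533-86705551, minus strand: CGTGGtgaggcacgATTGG
Dnajc3, chr14:118937827-118937845, plus strand: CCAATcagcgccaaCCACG
Pdia6, chr12:17266491-17266509, plus strand: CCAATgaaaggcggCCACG
Creld2, chr15:88819520-88819538, plus strand: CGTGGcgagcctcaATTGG
Ero1lb, chr13:12565682-12565700, plus strand: CGTGGtcccgcctcATTGG
Canx, chr11:50325800-50325818, minus strand: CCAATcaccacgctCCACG
Calr, chr8:84847075-84847093, minus strand: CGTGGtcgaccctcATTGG
Syvn1, chr19:6046532-6046550, plus strand: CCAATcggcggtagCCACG
Derl3, chr10:75893242-75893260, plus strand: CGTGGgacttccccATTGG

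The first 6 genes on these lines rose, Canx, Calr and Syvn1 did not pass, and Derl3 had no read. The promoters of 4 that rose are given from 250 bases before the start up to the start, 5′ to 3′ in gene orientation, with the ERSE ends in capitals, to show where the element lies.
Hspa5, chr2:34771840-34772089, plus strand: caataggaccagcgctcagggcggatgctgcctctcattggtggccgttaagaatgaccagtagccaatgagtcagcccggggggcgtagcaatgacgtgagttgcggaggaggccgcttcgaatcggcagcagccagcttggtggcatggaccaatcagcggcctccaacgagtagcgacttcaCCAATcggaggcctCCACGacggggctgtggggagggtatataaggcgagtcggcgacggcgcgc
Hsp90b1, chr10:86705445-86705694, minus strand: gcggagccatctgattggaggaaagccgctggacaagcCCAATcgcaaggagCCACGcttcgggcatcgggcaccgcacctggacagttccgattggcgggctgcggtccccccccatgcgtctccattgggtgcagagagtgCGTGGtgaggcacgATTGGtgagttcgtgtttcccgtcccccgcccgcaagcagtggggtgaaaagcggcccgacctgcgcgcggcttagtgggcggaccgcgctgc
Pdia6, chr12:17266339-17266588, plus strand: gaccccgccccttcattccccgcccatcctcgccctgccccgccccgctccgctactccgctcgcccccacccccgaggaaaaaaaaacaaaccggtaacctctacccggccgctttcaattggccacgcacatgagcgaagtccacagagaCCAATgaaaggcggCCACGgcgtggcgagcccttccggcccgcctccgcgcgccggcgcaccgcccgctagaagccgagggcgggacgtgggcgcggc
Dnajc3, chr14:118937682-118937931, plus strand: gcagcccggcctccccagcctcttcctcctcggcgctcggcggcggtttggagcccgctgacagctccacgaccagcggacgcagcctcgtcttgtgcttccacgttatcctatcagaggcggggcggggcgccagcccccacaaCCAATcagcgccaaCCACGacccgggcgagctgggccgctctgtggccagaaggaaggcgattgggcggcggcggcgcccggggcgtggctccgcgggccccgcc

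Holding the element and rising did not go together one to one. The share of genes that rose was similar with and without it, and the difference was not tested. Of the 10 genes with it, 6 rose, 3 did not pass and 1 was not tested (median log2 fold change 1.20). Of the 21 with a promoter entry but no match, 13 rose, 2 fell and 6 did not pass (median 0.81), among them the large rises of Sdf2l1, Edem1 and Ero1l. Outside the 37 genes, 7 tested genes held the element, of which 0 rose, 3 fell and 4 did not pass. Over all tested genes 30.6% rose and 33.9% fell. Of 93 other genes of the same pathways with a promoter entry, 0 held it. The related ERSE-II, ATTGGNCCACG, was in 0.0365% of all promoters and in Dnajb11 and Herpud1, which changed in opposite directions. The core TGACGTG of the XBP1 site was in 2.01% of all promoters and in Hspa5 alone of the 31 genes. The ATF4-type motif TGATGCAA was in 0.895% of all promoters and in Herpud1 alone. All motifs were searched on both strands as exact letters, so sites that differ in a fixed base were not counted. No match overlapped one of another motif in these genes. A match describes letters in this window and is not shown to be a bound site.

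**Figure D3:**
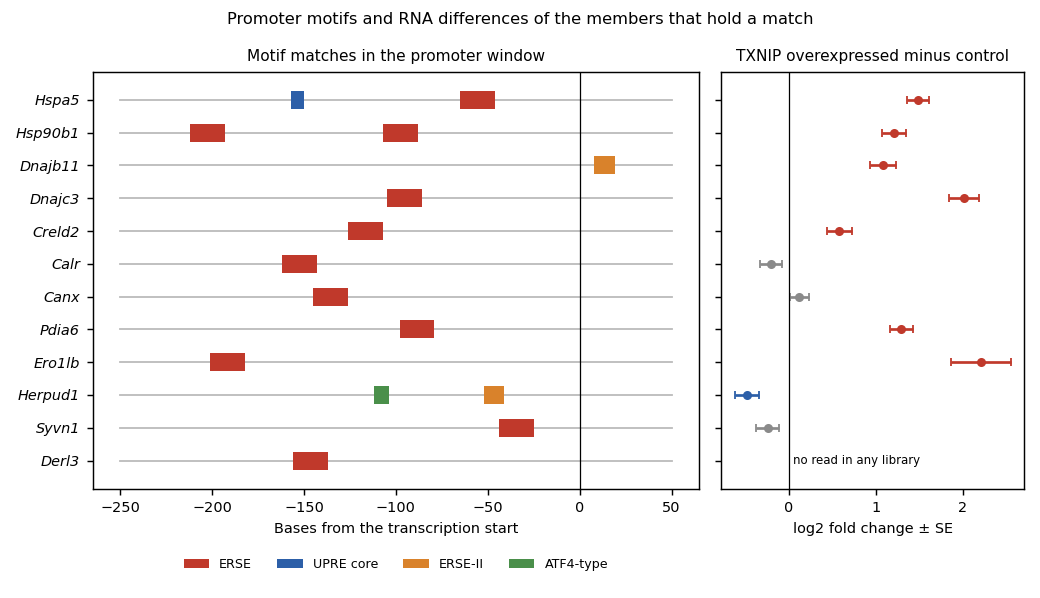
Left, matches to the 4 motifs (coloured boxes) in the promoter windows of the 12 genes that hold one, by distance from the transcription start (x axis, bases). Right, their log2 fold changes with SE; Calr, Canx and Syvn1 hold an ERSE and lie near 0, and Derl3 had no read.

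Related genes were then compared as ratios of their read counts within a library, which need no scaling between libraries. Of 10 pairs set out, 9 could be computed, since Derl3 had no read, and in 7 of these 9 the groups did not overlap. Of all single genes tested, 70.5% had groups that did not overlap in either direction, and no such share was counted for other gene pairs, so the 7 pairs are a description. With 3 libraries against 3, the exact two-sided permutation test cannot give a p below 0.1, and these 7 pairs reached it (adjusted p = 0.129 over the 9 pairs). The log2 ratio of Edem1 to Edem3 was 0.41 ± 0.41 in the controls and 2.46 ± 0.46 in the TXNIP libraries (SD, n = 3). That of Edem1 to Edem2 went from 0.49 ± 0.26 to 1.83 ± 0.17, so Edem1 gained on both relatives in every TXNIP library. The log2 ratio of Derl1 to Derl2 was 0.78 ± 0.17 and then 1.73 ± 0.11, and that of Pdia4 to Pdia3 was -1.33 ± 0.36 and then -2.28 ± 0.35. Atf6b is the paralog of Atf6, and the log2 ratio of Atf6 to Atf6b was -2.64 ± 0.13 in the controls and -1.86 ± 0.12 in the TXNIP libraries. Smaller separate shifts were seen for Calr to Canx, from 1.08 ± 0.08 to 0.75 ± 0.12, and for Hspa5 to Hsp90b1, from 0.66 ± 0.07 to 0.94 ± 0.08. The ratio of Ero1l to Ero1lb overlapped between the groups, at 3.24 ± 0.37 and 3.14 ± 0.21 (exact permutation p = 0.8), and so did that of Ppp1r15a to its constitutive paralog Ppp1r15b (exact permutation p = 0.3).

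**Figure D4:**
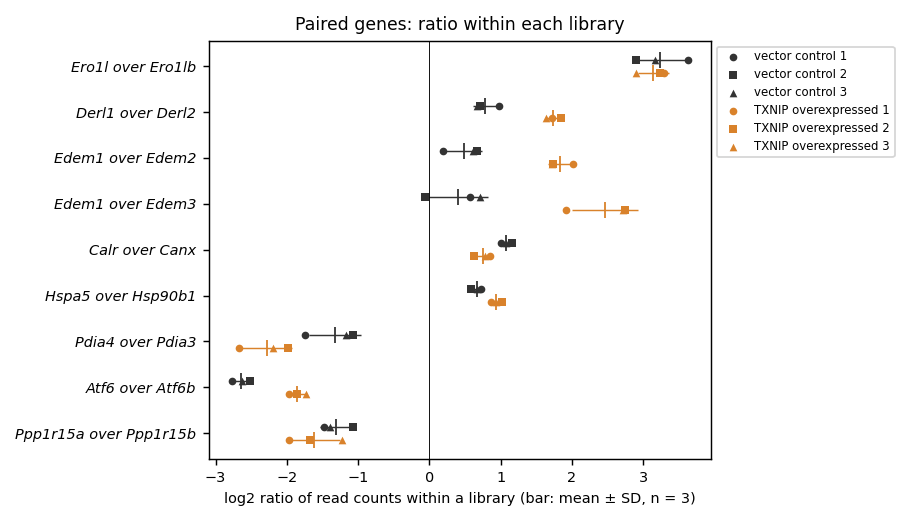
Log2 ratio of the read counts of paired genes in each library (x axis), black for controls and orange for TXNIP libraries, with mean and SD (n = 3). The ratios of Edem1 to its relatives and of Derl1 to Derl2 lie to the right in the TXNIP libraries, those of Pdia4 to Pdia3 to the left, and those of Ero1l to Ero1lb overlap.

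Another 123 genes of the same pathways had an entry. Of 112 tested, 40 rose, 23 fell and 49 did not pass, so 35.7% rose, beside 30.6% of all tested genes, with a median log2 fold change of 0.19. In the list of other translocon, signal recognition and signal peptidase genes, 17 of 28 rose, 3 fell and 8 did not pass (median log2 fold change 0.57). In this list 60.7% rose and 71.4% were called, beside 30.6% and 64.5% of all tested genes. Sec11c, a catalytic subunit of signal peptidase, rose from 20.2 ± 3.44 to 258 ± 14.9 CPM (SD, n = 3; log2 fold change 3.75 ± 0.16 SE). Krtcap2, an oligosaccharyltransferase subunit, and Srp54a, of the signal recognition particle, had log2 fold changes of 1.18 and 1.13. Not every part of the translocon rose. Sec62, an auxiliary subunit, fell from 490 ± 31.2 to 148 ± 45.6 CPM, Ssr3 from 298 ± 43.1 to 141 ± 22.0 CPM, and Sec61g from 389 ± 33.7 to 296 ± 11.1 CPM.

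Of 32 other ERAD genes, 4 rose, 10 fell and 18 did not pass (median log2 fold change -0.21). The share that rose was 12.5% and the share called 43.8%, beside 30.6% and 64.5% of all tested genes. Of all tested genes 33.9% fell. Vimp, which links the ATPase VCP to the derlins, rose from 214 ± 21.8 to 678 ± 10.2 CPM, and Ngly1 and Herpud2 had log2 fold changes of 1.04 and 0.88. Sel1l3, a relative of Sel1l, had 74.4 ± 20.1 CPM among controls against 1 read over the TXNIP libraries, in replicate 3. The ratio of its pooled counts, scaled by the total counts of each group, was 2162 (exact 95% interval 388 to 85440). Erlin2, an ER membrane scaffold protein, fell from 72.7 ± 9.34 to 24.6 ± 3.12 CPM.

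Further folding enzymes went both ways, with 9 of 32 higher, 7 lower and 16 not past. Thus 28.1% rose and 50% were called, no more than the 30.6% and 64.5% of all tested genes. Prdx4, the peroxiredoxin of the ER, rose from 0.453 ± 0.236 to 36.2 ± 9.45 CPM (log2 fold change 6.44 ± 0.37 SE). The prolyl isomerase gene Fkbp11 rose from 6.17 ± 2.11 to 52.7 ± 7.52 CPM and Mogs, which trims the first glucose from glycans, from 65.0 ± 1.58 to 234 ± 11.4 CPM. Fkbp9 went the other way, with 93.6 ± 14.9 CPM in the controls and not a single read in the TXNIP libraries (at least 952-fold lower, taking 3 reads over the group as the floor), and Fkbp14 and Fkbp7 had log2 fold changes of -2.48 and -1.79. Among 20 other signalling genes 10 rose, 3 fell and 7 did not pass. Here 50% rose and 65% were called, beside 30.6% and 64.5% of all tested genes. Creb3l1, a sensor related to ATF6, rose from 0.165 ± 0.286 to 8.90 ± 2.67 CPM. The stress-induced genes Bbc3 and Atf3 had log2 fold changes of 1.54 and 1.399. Atf4 and Ddit3, a pair of effectors downstream of PERK, fall outside the rule for named genes and were chosen after their values were seen. Their log2 fold changes were 0.54 ± 0.19 (SE, edgeR adjusted p = 0.0229) and 0.27 ± 0.17 (SE, edgeR adjusted p = 0.178). Of this pair only Atf4 passed, and the pair does not stand for all genes downstream of PERK. Mbtps1, the protease that makes the first cut in ATF6, fell from 256 ± 18.03 to 121 ± 2.73 CPM. Tmbim6, an inhibitor of ER stress-linked death, fell from 542 ± 135 to 220 ± 22.4 CPM, and Crebrf from 50.2 ± 22.8 to 21.4 ± 4.05 CPM, both with control replicate 1 the highest library.

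**Figure D5:**
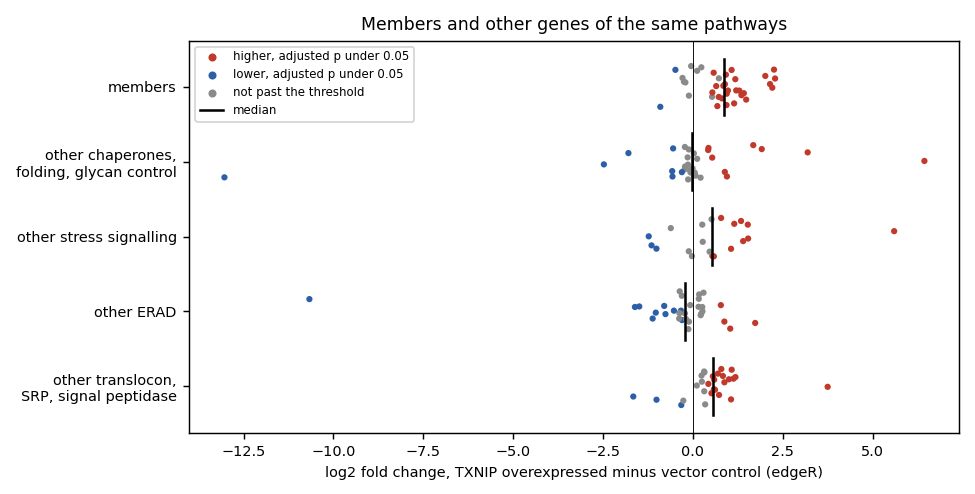
Log2 fold changes (x axis) of the 36 tested genes described above and of 112 other tested genes of the same pathways, coloured by call, with list medians as black bars; vertical spread within a list is only for legibility. The first list is shifted to the right (median 0.87), while the other ERAD list has a median of -0.21; the leftmost points, Fkbp9 and Sel1l3, had 0 and 1 read in the TXNIP libraries, and their fitted values are no bound.

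The counts of some genes can hold reads of an overlapping gene, since the sources used here do not give the strand setting. In GENCODE M21 the last 1000 transcribed bases of 5 of the 37 genes met an exon of a gene on the opposite strand. These were Manf with Vprbp (38.1 ± 3.51 and 27.4 ± 1.01 CPM), Pdia6 with Atp6v1c2 (1.22 ± 0.368 and 2.56 ± 1.05 CPM) and Ppp1r15a with Tulp2 (6.15 ± 0.912 and 3.07 ± 1.19 CPM). Syvn1 met Mrpl49, which fell from 159 ± 15.0 to 71.4 ± 2.59 CPM, and Sec61a1 met the antisense transcript Gm44170. Calr and Selk have annotated pseudogenes named after them, so their counts are uncertain where reads fit several copies. Pseudogenes under other names were not searched for, so the same may hold for other genes.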

How the data were processed

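The authors deposited raw read counts per gene symbol, 1 file per library. Per the labels' protocols RNA was extracted with Trizol and made into Lexogen QuantSeq 3′ libraries, and per the submitters' processing notes Bowtie2, bedtools and mm10 were used; the sources used here do not give versions, annotation, strand or duplicate handling. Counts come from 3 libraries per group. CPM used the library total. Genes passing filterByExpr were scaled by TMM and fitted with edgeR 4.0.16 (R 4.3.3; glmQLFit, robust, group only); relative to library totals, TMM moved fold changes by 0.07 (log2). DESeq2 1.42.0, limma 3.58.1 (voom), other scalings and filters, a replicate block and left-out libraries were alternatives. The script was tested on simulated data. The genes and lists were chosen with earlier results of these data known. All 37 genes are named; of other lists, the 3 largest rises and 3 largest falls past the threshold at 5 CPM or more, apart from the overlapping genes and a pair of genes marked in the text. One gene chosen by this rule is not reported here. Of 127 further symbols, 123 had an entry, matched by exact symbol. No molecular identifiers are described, so intervals and floors cover counting error only. Plots used matplotlib 3.10.9.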

Additional observations from a re-analysis of the deposited data

How the results depend on the processing

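Across 17 alternatives of the fit, 30 of the 36 tested genes kept their direction and call wherever they were tested. Counts stayed at 24 to 26 higher and 2 to 4 lower, the 4 lower without replicate 1 of both groups, where Calr and Pdia4 passed as well; that alternative, like the fit on genes averaging 5 CPM or more in each group, was chosen after seeing the data. The latter left 5024 called genes of 8423, with fewer genes tested. Leaving out 1 library gave 7201 to 7870 called genes (7796 with all), and 26 to 28 called of the 36 genes. Manf also missed an adjusted p of 0.01. Ppp1r15a (-0.048) ran from -0.146 to 0.0745 with 1 library left out and reversed without control replicate 2 (0.048) and TXNIP replicate 1, and Edem3 reversed to -0.0767 without replicate 1 of both groups; the cause was not tested. The log2 difference of the Ero1l to Ero1lb ratio (-0.093) ran from -0.26 to 0.10 with 1 library left out, reversed without control replicate 1 and TXNIP replicate 3 (0.029). A replicate block left 25 higher and 2 lower (7767 called genes); same-numbered libraries had correlated deviations of 0.160, 0.079 and 0.089 for numbers 1, 2 and 3, and control replicate 2 correlated best with TXNIP replicate 3 (0.083), so pairing was not established. In the paired sign-flip test of ratios the smallest p is 0.25. Derl3 had no read in any library, and the cause was not tested. Ern1 had few reads and a wide spread between TXNIP libraries.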

Other observations

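Control replicate 1 was the lowest control for 27 of the 37 genes and the highest for 4. TXNIP replicate 1 was the lowest of its group for 15 and the highest for 10. Such counts were not made over all tested genes, so they cannot be called particular to the 37 genes. Between replicates of a group, counts over all genes differed far beyond counting noise, the chi-square divided by its degrees of freedom being 23.2 to 28.5 for pairs with replicate 1 and 6.41 and 6.52 for replicates 2 and 3. The 45S ribosomal RNA entry Rn45s took 8.98% to 9.63% of counts in the controls and 7.85% to 9.46% in the TXNIP libraries.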
